A study of Caenorhabditis elegans with 2 samples.

Results

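The genes described here encode the proton pump of acidic organelles and the cathepsin-type proteases that work in them. They were taken by name from the Ensembl gene models, as every protein-coding gene called vha-, cpr-, asp- or cpl- followed by a number. The rule gave 46 of 19973 protein-coding genes, of which 20 are V-ATPase (vha) genes and 26 are protease genes, with 8 cpr genes, 1 cpl gene and 17 asp genes. The data are peak lists from chromatin immunoprecipitation and sequencing (ChIP-seq) of FOS-1, a bZIP transcription factor of the Fos family, in the nematode Caenorhabditis elegans. Chromatin came from whole L2 larvae of mixed sex of strain OP304, which carries unc-119(ed3) on chromosome III and the integrated transgene wgIs304 with eGFP joined to fos-1. The 2 biological replicates form 1 group, so no condition was compared with another, and peaks of all tissues are seen together. The tagged protein is made from added gene copies, and the labels do not say how its level compares with that of the native protein.

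The V-ATPase is a rotary pump that uses ATP to drive protons into lysosomes, endosomes and other compartments, and across some plasma membranes. Its cytosolic V1 sector splits ATP, and its membrane V0 sector carries the protons. The acid it makes activates the proteases of the lysosome, among them cysteine proteases of the cathepsin B and L families (cpr and cpl) and aspartyl proteases related to cathepsin D and pepsin (asp). In the worm the intestine is rich in lysosome-related organelles and also secretes such proteases into the gut lumen, and GATA factors such as ELT-2 act at many intestinal genes through GATA sites.

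A gene was given a promoter peak when a summit fell into the window around the start of one of its protein-coding transcripts, reaching 1000 bp upstream and 250 bp downstream. Summits were those of the list thresholded by the irreproducible discovery rate (IDR), which is based on how alike peaks rank in the replicates. The list held the strongest calls made on both replicates pooled. Its lowest signal was 33.9448, and the highest pooled call outside it had 33.9438. A single listed peak therefore need not rank alike in the replicates. Of the 7446 listed peaks, 5920 overlapped a call among the 7446 strongest in each of the 2 replicates. Positions are on ce11 (WBcel235), counted from 1, and a negative distance is upstream. The IDR list held 7446 peaks, with signal values from 33.9 to 702. Signal is the authors' own peak value. It is not normalized between lists, and the read depth behind it is unknown, so no interval was attached to it.

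The stretches below are the 101 bp centred on the strongest promoter summit of 5 protease genes and 5 V-ATPase genes, read 5′ to 3′ along the strand of the gene. They are shown because most protease summits had a GATA site nearby and most pump summits had none. Capitals mark the GATA site WGATAR, where W stands for A or T and R for A or G, and the GAGA repeat GAGAGAG, both in either direction.
cpr-3, chrV:15298777-15298877, minus strand: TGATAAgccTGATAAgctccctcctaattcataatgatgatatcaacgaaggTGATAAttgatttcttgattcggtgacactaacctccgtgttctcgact
asp-2, chrV:9202876-9202976, plus strand: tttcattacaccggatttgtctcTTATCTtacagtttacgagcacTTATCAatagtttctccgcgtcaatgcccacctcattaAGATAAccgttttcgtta
cpl-1, chrV:16595520-16595620, minus strand: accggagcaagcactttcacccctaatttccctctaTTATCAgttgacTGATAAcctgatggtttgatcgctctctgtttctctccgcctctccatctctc
asp-5, chrV:8272188-8272288, plus strand: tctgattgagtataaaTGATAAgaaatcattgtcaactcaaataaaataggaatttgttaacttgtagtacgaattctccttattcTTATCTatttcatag
cpr-4, chrV:6614506-6614606, plus strand: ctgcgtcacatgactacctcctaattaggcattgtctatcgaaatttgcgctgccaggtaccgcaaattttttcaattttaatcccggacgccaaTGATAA
vha-1, chrIII:9780794-9780894, plus strand: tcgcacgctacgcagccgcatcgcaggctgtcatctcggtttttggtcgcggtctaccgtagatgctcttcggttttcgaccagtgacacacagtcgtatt
vha-8, chrIV:6790591-6790691, plus strand: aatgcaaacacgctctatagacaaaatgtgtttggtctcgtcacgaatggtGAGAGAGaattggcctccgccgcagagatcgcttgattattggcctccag
vha-12, chrX:4190768-4190868, plus strand: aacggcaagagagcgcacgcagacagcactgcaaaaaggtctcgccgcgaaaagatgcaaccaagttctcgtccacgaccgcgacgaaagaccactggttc
vha-15, chrX:2237592-2237692, plus strand: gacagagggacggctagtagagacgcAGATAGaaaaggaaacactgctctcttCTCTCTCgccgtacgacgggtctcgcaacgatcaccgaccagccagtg
vha-6, chrII:11438568-11438668, minus strand: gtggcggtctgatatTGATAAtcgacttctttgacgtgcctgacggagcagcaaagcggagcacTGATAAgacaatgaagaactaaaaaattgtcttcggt

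Both classes had promoter peaks at most of their genes. FOS-1 peaks were assigned to 14 of 20 V-ATPase genes (70.0%) and to 17 of 26 protease genes (65.4%), beside 23.4% of all protein-coding genes. The 31 genes had 32 different summits, because cpr-9 and asp-12 had 2 summits each and asp-6 and asp-12 shared 1. The members were chosen with earlier results of these data known, so counts and medians are set beside those of all genes and no test was run on them.

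Among the V0 genes, 6 of 9 had a promoter peak, beside 23.4% of all genes. The strongest was at vha-1, which encodes a proteolipid of the proton-carrying ring. Its signal was 257 in the IDR list, with rank 67 of 7446, and the overlapping call had a signal of 181 in replicate 1 and 76.7 in replicate 2. The summit lay 410 bp upstream of vha-1 (chromosome III, 9781254 to 9781763, plus strand), between vha-1 and the divergent gene sqv-3, whose promoter window also held it. The next ring gene on the same strand, vha-2, starts 401 bp after the end of vha-1 and had another peak with a signal of 48.7 (31.5 and 17.9 in replicates 1 and 2), 56 bp upstream of its start. The window of R10E11.6, which is no member, also held that summit. The third ring gene with a peak was vha-4, with a signal of 77.2 (57.1 and 21.2), where the summit lay 91 bp from the start of T01H3.5 and 209 bp from that of vha-4.

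The remaining V0 peaks were of middle rank. Of the genes for subunit a, the large membrane subunit that places the pump in its compartment, vha-6 of the intestine had a peak with a signal of 65.7 (41.4 in replicate 1 and 26.3 in replicate 2). The epidermal genes vha-5 and vha-7 had none in the promoter window. The gene for subunit d, vha-16, had a signal of 100.4 (69.8 and 28.2). The gene for subunit e, vha-17, had a signal of 83.6 (51.4 and 30.9), at a summit 331 bp from the start of F49C12.12 and 381 bp from that of vha-17.

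Among the V1 genes, 7 of 9 had a promoter peak, beside 23.4% of all genes. Of these 7 peaks, 6 were among the 3723 strongest of the IDR list, beside 53.6% for all genes with a peak. The strongest was at vha-8, which encodes subunit E of the stalk. Its signal was 209.8 with rank 161, and 139 and 70.8 in replicates 1 and 2. That summit lay 153 bp from the start of the divergent gene C17H12.2 and 433 bp from that of vha-8 (chromosome IV, 6791074 to 6792455). Of the genes of the catalytic head, vha-13 (subunit A) had a signal of 139 (97.1 and 43.5) and vha-12 (subunit B) one of 112 (76.5 and 38.8). The vha-13 summit lay 587 bp upstream, in the 3′ UTR of cept-2, the neighbouring gene on the same strand.

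Of the other V1 genes, vha-15 (subunit H) had a signal of 123 (91.3 in replicate 1 and 26.6 in replicate 2), between those of vha-13 and vha-12. The second gene for subunit H, vha-18, had neither an IDR peak nor a relaxed pooled call in its promoter window. The peak of vha-10 (subunit G) had a signal of 109 (76.3 and 33.0) and lay in an intron of trpp-8, which ends 104 bp before vha-10 on the same strand. The genes of the central stalk were weaker, with vha-14 (subunit D) at 75.5 (41.2 and 30.2) and vha-9 (subunit F) at 54.5 (28.8 and 23.0). Of the accessory subunits, vha-19 had a weak peak with a signal of 37.2. It was at 30.1 in replicate 1 and at 7.83 in replicate 2, where its rank was 10416.

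**Figure D1:**
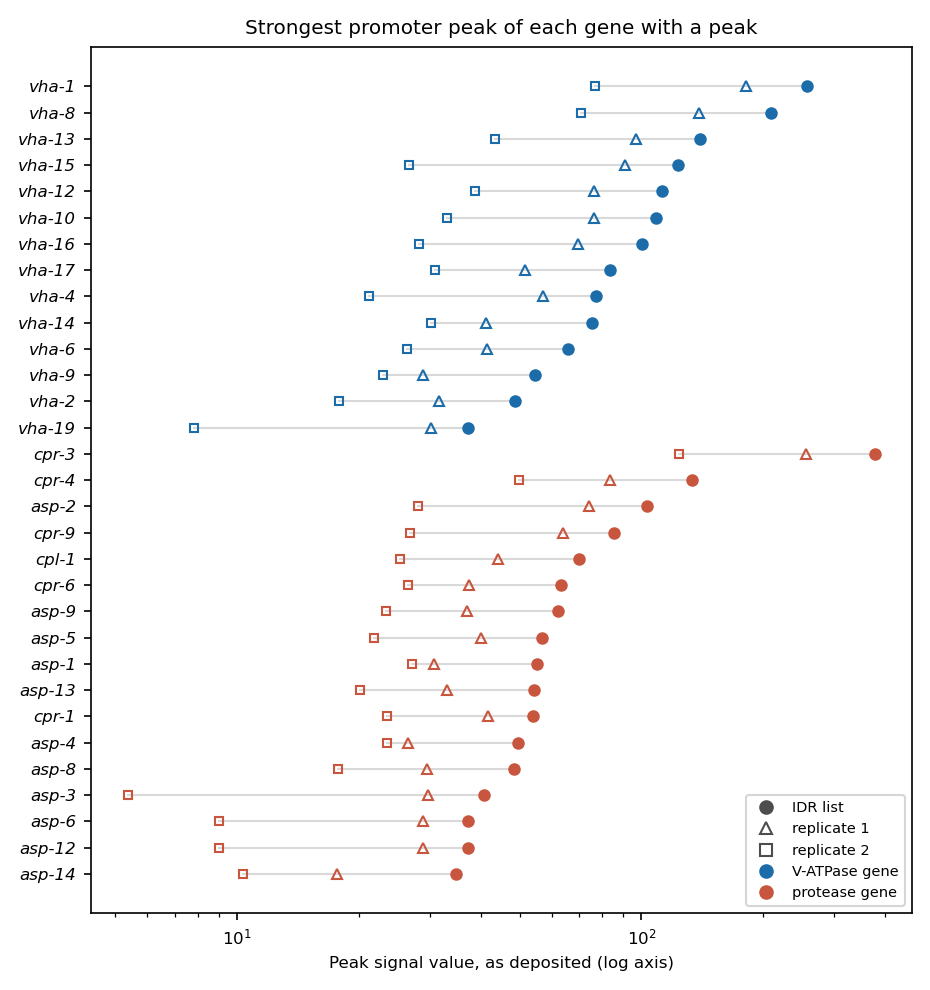
Signal value (log axis) of the strongest promoter peak of the 14 V-ATPase and 17 protease genes that had one, in the IDR list (filled circles) and of the overlapping call in replicate 1 (triangles) and replicate 2 (squares). The V-ATPase peaks run from 37.2 to 257 and the protease peaks from 34.7 to 378, and replicate 1 is above replicate 2 at every gene, on scales that are not normalized to each other.

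The cathepsin B-like genes held the strongest peak of all members. It was at cpr-3, with a signal of 378 and rank 12 of 7446, and with signals of 256 in replicate 1 and 124 in replicate 2. The summit lay 127 bp upstream of cpr-3 (chromosome V, 15296834 to 15298700, minus strand), and no other protein-coding gene had it in its window. The second was cpr-4 with a signal of 134 (83.6 and 49.7), at 118 bp upstream. At cpr-6 the signal was 63.4 (37.5 in replicate 1 and 26.5 in replicate 2), 48 bp upstream. At cpr-1, a cysteine protease gene of the gut, it was 54.0 (41.8 and 23.5), 126 bp upstream. The gene cpr-9 had 2 summits. The stronger, with a signal of 85.5 (64.2 and 26.8), lay 875 bp upstream and 381 bp from the start of gcy-33, a guanylyl cyclase gene. The other, with 61.1 (37.5 and 25.2), lay 95 bp downstream of the cpr-9 start, in its 5′ UTR. The distal summit was the only cathepsin B-like one that a gene outside the group shared.

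The gene of the cathepsin L-like protease, cpl-1, which is needed in the embryo, had a peak of signal 70.2 at 224 bp upstream. It was at 44.2 in replicate 1 and 25.3 in replicate 2.

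The aspartyl protease genes had 11 of 17 with a promoter peak, beside 23.4% of all genes. Nearly all were of low rank in the IDR list, with 1 of 11 among the 3723 strongest, beside 53.6% for all genes with a peak. In replicate 1 it was also 1 of 11, beside 53.6%. In replicate 2 it was 5 of 11 (45.5%), beside 53.2%. The strongest was asp-2 with a signal of 103 (74.1 in replicate 1 and 28.0 in replicate 2), and none of the other 10 genes had a peak among the 3723 strongest of the IDR list. Of these, asp-9 had a signal of 62.4 (37.1 and 23.4), 143 bp upstream, and asp-5 one of 56.9 (40.1 and 21.8), 147 bp upstream. The intestinal protease gene asp-1 had a signal of 55.2 (30.7 and 27.0), and its summit lay 859 bp upstream, the farthest of the aspartyl protease genes. Near their starts, asp-13 had a signal of 54.4 (33.0 and 20.1) at 74 bp and asp-8 one of 48.4 (29.5 and 17.8) at 75 bp upstream.

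The cathepsin D-related genes asp-4 and asp-3 are known for their part in necrotic neuron death. At asp-4 the signal was 49.5 (26.5 in replicate 1 and 23.5 in replicate 2), 110 bp upstream, and at asp-3 it was 40.7, 67 bp downstream of the start. The divergent pair asp-6 and asp-12 shared a peak of signal 37.3, which lay 226 bp from the start of asp-6 and 47 bp from that of asp-12. A second peak of asp-12, in its intron, had a signal of 34.7 (21.7 and 12.9). The peak of asp-14, 34 bp upstream, also had a signal of 34.7 (17.6 and 10.4), just above the IDR limit.

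Replicate 2 gave some of the aspartyl protease peaks little weight. The asp-3 peak had a signal of 29.7 in replicate 1 and 5.37 in replicate 2, where it had rank 15124, and the peak shared by asp-6 and asp-12 had 28.8 and 9.0. When each replicate was cut to its own 7446 strongest calls, 27 of 32 member summits were present in both (84.4%), beside 79.5% of all IDR peaks. The 5 others were the peaks of vha-19, asp-3, asp-6 with asp-12, the second peak of asp-12, and asp-14. Among the strongest calls, the second asp-12 peak was missing only in replicate 1 and that of asp-14 in both replicates. The rest were missing only in replicate 2. Across the 32 summits, log10 signal of the replicates had a Pearson's r of 0.841, against 0.706 over all 7379 IDR peaks with a call in both. These points share libraries, and the values are a description.

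As whole classes, pump genes had the lower median rank number, so the stronger peaks, in the IDR list and in both replicates. The median signal of the strongest promoter peak was 92.0 over the 14 pump genes and 55.2 over the 17 protease genes, beside 67.6 over all 4681 genes with a peak. The median rank was 2050 for pump genes and 4568 for protease genes in the IDR list, and 2094 and 4735 in replicate 1. In replicate 2 it was 2113 for pump genes and 3061 for protease genes, with 3475 over all genes. The peak was among the 3723 strongest of the IDR list at 11 of 14 pump genes (78.6%) and at 5 of 17 protease genes (29.4%), beside 53.6% of all genes with a peak. In replicate 1 this held for 9 pump genes (64.3%) and 4 protease genes (23.5%), beside 53.6% of all genes. In replicate 2 it held for 12 pump genes (85.7%) and 11 protease genes (64.7%), beside 53.2% of all genes. In replicate 2 the protease median thus stood above that of all genes, and in replicate 1 below it. The ranges of the 2 classes overlapped in every list. The contrast was not that of every subgroup. Median rank in the IDR list was 1252 for V1, 2639 for V0, 2336 for cathepsin B-like and 5207 for aspartyl protease genes. In the same order it was 1324, 2770.5, 2001 and 6085 in replicate 1, and 1629, 2413, 2481 and 3842 in replicate 2. These medians rest on 7, 6, 5 and 11 genes.

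**Figure D2:**
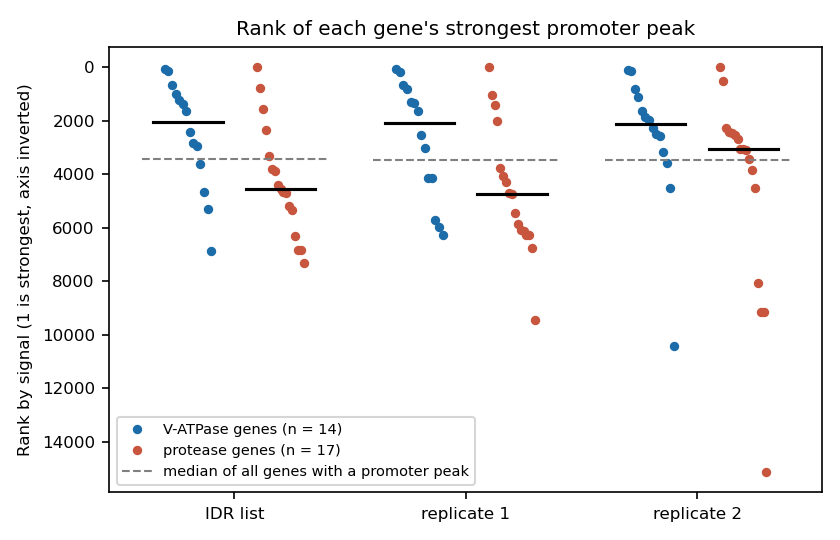
Rank by signal of the strongest promoter peak of each gene in the IDR list and of the overlapping call in each replicate. Points are genes, black bars are class medians and dashed lines the median of all genes with a promoter peak and a call in both replicates. Protease medians are 4568, 4735 and 3061 and pump medians 2050, 2094 and 2113.

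The members without a promoter peak were of several kinds. At vha-3, a ring gene, the nearest IDR summit lay 1001 bp upstream, 1 bp outside the window, with a signal of 96.8. At vha-5 the nearest was 1842 bp upstream (signal 61.1). At vha-7 it lay inside the gene, 1147 bp downstream of the nearest start (signal 49.3). Weak calls of the relaxed pooled list, from which the IDR list was drawn, lay in the windows of vha-11 (subunit C, signal 17.9) and vha-20 (accessory, signal 14.4). The divergent pair cpr-5 and cpr-8 shared a relaxed call of signal 30.05, under the IDR limit of 33.9.

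For the other 7 protease genes, cpr-2, asp-7, asp-15, asp-16, asp-17, asp-18 and asp-19, the relaxed pooled list held no call in the window. All 9 protease genes without a peak lay on chromosome V, which holds 21 of the 26, while each of the 4 on X and the 1 on IV had a peak. Several stand in tandem with a member that had a peak, such as asp-7, which starts 354 bp after asp-8, and asp-15, asp-16 and asp-17, which follow asp-1 on the same strand. How the authors treated reads that match similar gene copies is not given in the sources used here.

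Most counts changed little with the rule that assigns peaks. Pump and protease genes with a peak numbered 13 and 16 with 500 bp upstream (all genes 19%), 17 and 17 with 2000 bp upstream (29.1%), and 15 and 17 when the peak had only to overlap the window by 1 bp (24.7%). With the outermost start of each gene alone they were 14 and 17 (21.7%), and with all relaxed pooled calls 16 and 19 (46.6%). With the strongest 7446 calls of replicate 2 alone they were 14 and 14 (22.6%), and of replicate 1 alone 14 and 18 (23.2%). With the 3723 IDR peaks of highest signal they were 11 of 20 and 5 of 26 (all genes 12.6%), so the protease count fell to 19.2% and the pump count to 55.0%. At 3 pump genes, vha-4, vha-8 and vha-17, the summit was nearest to the start of a gene that is no member, and without these 11 pump genes were left.

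In the median, pump summits stood farther upstream than protease summits, V1 summits more so than V0 summits. Relative to the start, the median position of the strongest summit was −272.5 bp for pump genes and −126 bp for protease genes, beside −212 bp over all genes with a peak. It lay more than 250 bp upstream at 8 of 14 pump genes and at 2 of 17 protease genes, cpr-9 and asp-1, beside 44.0% of all genes. For V1 genes the median was −276 bp, with 5 of 7 genes beyond 250 bp. For V0 genes it was −194.5 bp, with 2 of 6, so these were not farther upstream than all genes. Many worm transcripts receive a spliced leader that removes their first bases, so an annotated start can lie downstream of the true one. No values on transcript starts were analysed here, and the part of this in the distances was not tested.

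**Figure D3:**
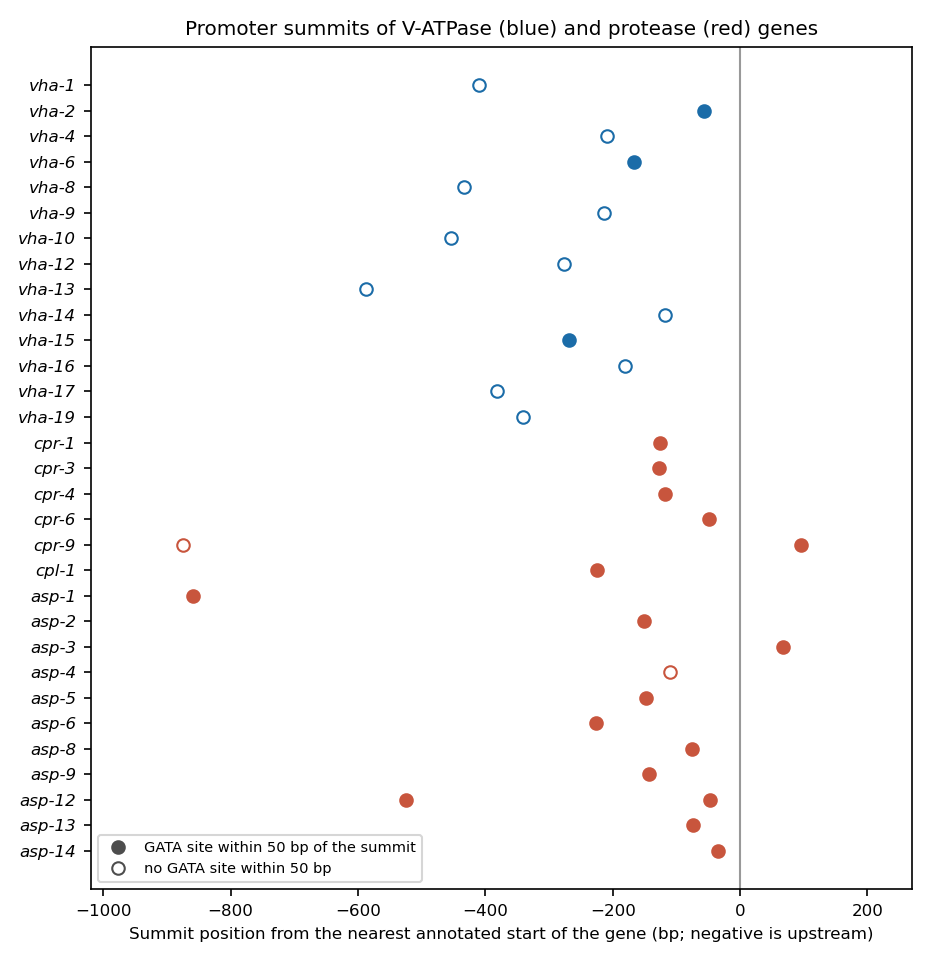
Position of each promoter summit from the nearest annotated start of the gene in bp, for V-ATPase genes (blue) and protease genes (red). Filled points have a GATA site within 50 bp. Most protease summits lie within 250 bp upstream and are filled, and most pump points are open.

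Of the patterns searched, the GATA site differed most in share between the classes. WGATAR lay within 50 bp of 16 of 18 protease summits (88.9%) and of 3 of 14 pump summits (21.4%), beside 50% of all 4222 promoter summits. In flanking windows, equally wide and 300 bp away on each side, it was found at 16.7% for protease, 28.6% for pump and 21.0% for all promoter summits. The protease share at summits was thus above that of the flanks, and the pump share was not. At 8 protease summits there were 2 or more sites, with 3 each at cpr-3 and asp-2. The protease summits with none were that of asp-4, where the nearest site was 89 bp away, and the distal one of cpr-9.

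The 3 pump summits with a GATA site were those of vha-2, vha-6 and vha-15. At vha-6, the intestinal subunit a gene, there were 2 sites, and it was the only pump summit with the extended site TGATAAG, a longer form that contains WGATAR. The nearest WGATAR lay a median of 19 bp from protease summits and 180.5 bp from pump summits. Within 25 bp the counts were 11 of 18 and 2 of 14, beside 32.4% of all promoter summits, and within 100 bp 17 of 18 and 6 of 14, beside 63.1%. The extended site lay at 6 of 18 protease summits, beside 21.5% of all promoter summits. Among summits within 300 bp of a start, WGATAR lay at 14 of 15 protease and 3 of 8 pump summits, beside 48.8% of all summits so placed.

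**Figure D4:**
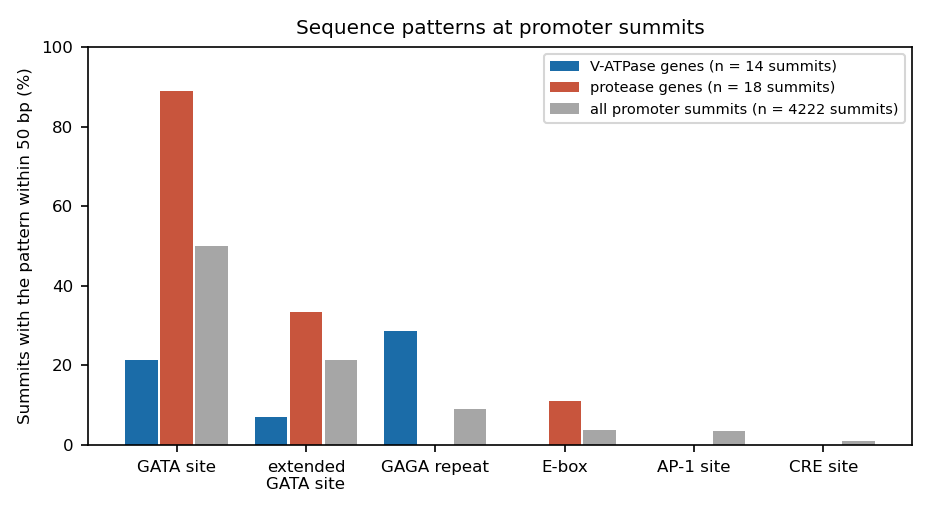
Share of summits with each pattern within 50 bp, for 14 V-ATPase summits, 18 protease summits and all 4222 promoter summits, each summit counted once. The GATA site is at 88.9% of protease and 21.4% of pump summits, and the GAGA repeat at 28.6% of pump summits and none of the protease summits.

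Base composition moved with this difference, and beyond the values below its part was not tested. The 101 bp around pump summits had a median of 51.5% G and C, from 38.6 to 62.4%, and those around protease summits 40.1%, from 25.7 to 50.5%, beside 40.6% for all promoter summits. WGATAR is rich in A and T, and among all promoter summits its share fell from 83.0% where G and C made up less than 35% to 11.9% where they made up 50% or more. All promoter summits, weighted to the composition of the pump summits in 5 classes of G and C, had WGATAR at 26.1%, near the 21.4% measured at pump summits. Weighted to the composition of the protease summits they had it at 56.4%, below the 88.9% measured. In the class from 40 to 45% G and C, it was at 6 of 7 protease and 1 of 4 pump summits, beside 44.4% of all.

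**Figure D5:**
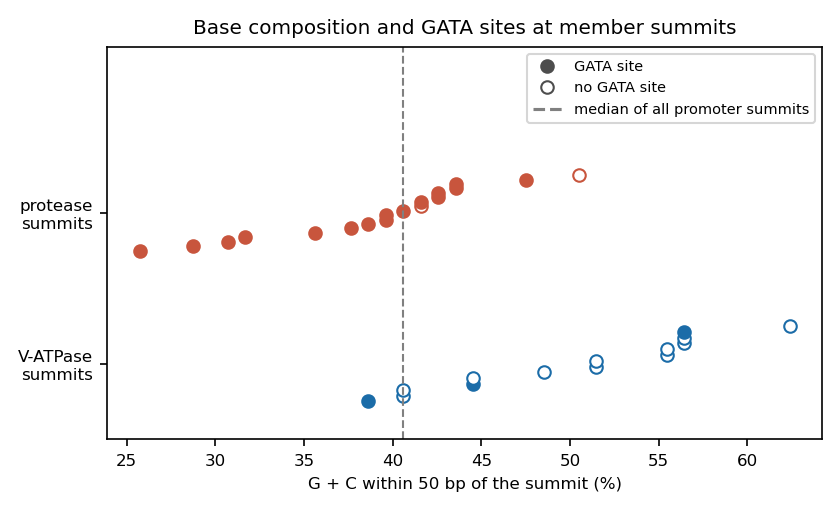
Share of G and C in the 101 bp centred on each summit (x axis) for V-ATPase and protease summits, ordered by value within a class. Filled points have a GATA site, and the dashed line is the median of all promoter summits at 40.6%. Of 14 pump summits, 8 lie at 50% or more, where 1 has a site.

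Other patterns were rare at these summits. The GAGA repeat lay at 4 of 14 pump summits, those of vha-8, vha-13, vha-15 and vha-16, and at 0 of 18 protease summits, beside 8.93% of all promoter summits. The site TGASTCA, with S for C or G, which Fos and Jun dimers bind, lay at none of the 32, where 3.51% of all promoter summits have it, and TGACGTCA at none, beside 0.947%. The E-box CACGTG lay at 2 protease summits, that of cpr-1 and the second of asp-12, beside 3.81%. Its longer form TCACGTGA, bound by factors of the TFEB type such as HLH-30, was in the promoter window of none of the 46 genes, beside 1.92% of all genes. The pattern GACGCAGA, added because an earlier ranking on these peaks had given it, lay at the summits of vha-15 and vha-19 and at no protease summit, beside 5.85%. These are matches of letters in fixed windows.

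Over whole promoter windows of 1251 bp at the outermost start, the share with WGATAR could hardly differ between the classes. The site was in 93.9% of the windows of all protein-coding genes. It was in all 46 windows, with a median of 4 sites for pump and 4.5 for protease genes, beside 3 for all genes. The extended site TGATAAG was in 16 of 26 protease windows (61.5%) and 6 of 20 pump windows (30%), beside 24.2% of all genes. Protease genes with a promoter peak had a median of 6 WGATAR sites and those without had 3. This was not seen at pump genes, where those with a peak had a median of 3.5. The pump genes without a peak had 2 (vha-3), 6 (vha-5), 6 (vha-7), 3 (vha-11), 7 (vha-18) and 4 (vha-20) sites. Over all genes with a promoter peak the median was 3, the same as for all genes, with means of 3.71 and 3.21. Of the 9 protease genes without a peak, 4 had the extended site, namely cpr-5, cpr-8, asp-7 and asp-18. It was in 12 of the 17 protease windows with a peak and in 3 of the 14 pump windows with a peak.

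The other genes of the pathway were taken from hand-written lists. Of the pump's partners, unc-32, the neuronal subunit a gene, had a weak peak of signal 36.7 at 445 bp upstream, and rbc-2, a rabconnectin gene, one of 90.0. Neither had WGATAR at its summit, and rbc-1 and spe-5, a subunit B paralogue of sperm, had no promoter peak. Among 10 other cathepsin-type proteases, 6 had a promoter peak, beside 23.4% of all genes, and WGATAR lay at 6 of their 7 summits, beside 50% of all promoter summits. They were the cathepsin Z genes cpz-1 (signal 76.6) and cpz-2 (87.9) and the serine carboxypeptidase genes ctsa-1.2, ctsa-2, ctsa-3.1 and ctsa-4.2 (37.1 to 98.9).

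Of 40 other lysosomal genes, 24 had a promoter peak (60.0%, beside 23.4% of all genes), with a median signal of 76.4. WGATAR lay at 18 of their 25 summits, beside 50% of all promoter summits. The strongest were aagr-2, an acid glucosidase gene (148), ncr-1, a sterol transporter gene of the NPC1 type (139), and asah-2, an acid ceramidase gene (129). No promoter peak was found for cup-5, the worm mucolipin gene, for ctns-1, the cystinosin gene, or for laat-1, a lysosomal amino acid transporter gene. Among 12 regulators of lysosomal or intestinal genes, 9 had one, and WGATAR lay at 6 of their 12 summits, the same share as at all promoter summits. They included elt-2 (signal 167) and hlh-30, the worm TFEB gene, whose 3 peaks reached 103, while raga-1, let-363 and mxl-2 had none.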

How the data were processed

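FOS-1 ChIP-seq peak lists on ce11 were read for 2 biological replicates of 1 group. The signal values, the −log10 q-values and the summit offsets are the authors' own, as deposited. Per the deposited manifests, each relaxed list came from alignments and a control, and the IDR list from the pooled and both replicate lists. The sources used here name neither aligner nor peak caller, read depth is unknown, and the control was not analysed here. The ce10 lists were not used. Genes are from Ensembl release 115 (WBcel235) and bases from the RefSeq genome of that assembly, whose chromosome names matched those of the peak lists, with no peak past a chromosome's end. The summit is the peak start plus column 10. For replicate values, the strongest call that overlapped an IDR peak by at least 1 bp was taken. Patterns were searched on both strands within 50 bp of summits, and counts were made with Python 3.11.15. Window and pattern code was tested on made-up positions. The members, lists and patterns were chosen with earlier results of these data known, so no p-value was computed. By the rule for named genes, every member is named, with full values for V-ATPase genes and for proteases with a promoter peak, and genes of the other lists with a peak are named or counted. Alternatives were other windows, starts, overlaps, margins, lists and single replicates.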

Additional observations from a re-analysis of the deposited data

How the results depend on the processing

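With 2 replicates and unknown depth, only the spread between the replicates stands behind these values. Counts of genes with a promoter peak stayed within 1.5 times under every alternative, except that protease genes with a peak fell from 17 to 5 with the 3723 peaks of highest signal. The pump median signal of 92.0 was 83.6 with 500 bp upstream, 96.8 with 2000 bp and 100.4 without summits nearer to another gene. Median rank, as a percentage of the list, was 27.5 for pump genes and 28.1 to 28.4 with single replicates, and 61.3 for protease genes and 38.6 to 68.5. The share of pump summits with WGATAR, 21.4%, was 21.4 to 26.7% with single replicates, 14.3% within 25 bp and 42.9% within 100 bp. It was 7.14% for TGATAAG, 27.3% without summits nearer to another gene and, as alternatives added after seeing the data, 28.6% for GATA alone and 37.5% within 300 bp of a start. The protease share, 88.9%, was 81.2 to 82.4% with single replicates, 61.1% within 25 bp, 94.4% within 100 bp, 33.3% for TGATAAG, 94.1% without summits nearer to another gene, 94.4% for GATA alone and 93.3% within 300 bp. It was above the pump share in each of these.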
